A study of Mus musculus with 23 samples.

Results

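The kinesin genes encode the motor proteins that walk along microtubules or take microtubules apart, and their transcript levels were examined in mouse embryonic stem cells (ESCs) with and without removal of the ZF-CxxC domain of KDM2B. Members were taken by name, as every row of the expression tables called Kif with a number and at most 1 letter, or Kifc with a number. The rule found 40 genes among 23369 gene names, and 32 of the 40 passed the filter on low values that 12997 genes passed. By the textbook role of each motor they were placed in 3 classes: 13 mitotic kinesins, 15 transport kinesins and 12 others.

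The 6 RNA-seq samples came from MS12 Kdm2b fl/fl ESCs at passages 10 to 20. In these cells loxP sites flank the part of Kdm2b that encodes the DNA-binding ZF-CxxC domain on both alleles, and a tamoxifen-inducible Cre recombinase is stably expressed. The untreated group (n = 3) and the group given 4-hydroxy tamoxifen at 800 nM for 72 hr (n = 3) therefore shared genotype and Cre, and no group given tamoxifen without floxed alleles was analysed here. Cells were grown on inactivated mouse embryonic fibroblasts in medium with LIF and were then left overnight without this feeder layer. The study's methods call the RNA samples biological triplicates, and the p-values measure the spread between them.

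Sample labels set the groups. The deposited files carry names that read the other way round for all 6 samples, and under that reading each difference below would change sign while its size and p-value would stay. The series text gives the tamoxifen concentration as 800 µM, against 800 nM in the labels. Whole-gene Kdm2b does not resolve the floxed segment and could not settle the labels: it was at 27.0, 21.5 and 27.7 FPKM (fragments counted per unit of transcript length and of library size) in the untreated replicates 1, 2 and 3 and at 19.9, 21.9 and 25.04 in the treated replicates.

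Kinesins share a motor domain that turns ATP hydrolysis into force on a microtubule. Mitotic kinesins slide spindle microtubules apart, depolymerise their ends, move chromosomes or build the midzone on which the cell divides, and dividing cells make many of them mainly before and during mitosis. Transport kinesins carry vesicles, organelles, RNA and protein complexes, usually toward microtubule plus ends, and several are best known from axons and cilia. KDM2B binds nonmethylated CpG-rich DNA, where it brings a variant polycomb complex, so the sequence at the start of these genes is shown first.

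Start-site sequences were available for 32 of the 40 genes, as 36 windows running from 250 bases before to 50 bases after an annotated start (RefSeq, GRCm38.p6; this is not mm9, the build of the expression tables). In the 85-base stretches below, from 60 bases before the start, capitals mark the cell-cycle element CHR (TTTGAA, or TTCAAA on the other strand) and the CCAAT box (CCAAT, or ATTGG on the other strand). All 6 mitotic stretches printed hold CHR, and all but that of Kif15 also hold a CCAAT box. They do not stand for the whole class, since the only TTTGAA matches of Kif14 and Kif2c lie further away, at -228 and -103 from the start. Kif1c and Kif7, to which results below turn, hold neither in the same stretch.
Kif11 (chr19:37376322-37376406, plus strand): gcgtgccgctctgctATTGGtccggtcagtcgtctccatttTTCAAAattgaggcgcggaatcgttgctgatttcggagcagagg
Kif22 (chr7:127042396-127042480, minus strand): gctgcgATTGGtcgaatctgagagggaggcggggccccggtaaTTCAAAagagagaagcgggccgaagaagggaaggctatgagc
Kif15 (chr9:122951021-122951105, plus strand): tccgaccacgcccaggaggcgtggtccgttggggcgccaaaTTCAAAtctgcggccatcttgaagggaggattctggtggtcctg
Kif23 (chr9:61946775-61946859, minus strand): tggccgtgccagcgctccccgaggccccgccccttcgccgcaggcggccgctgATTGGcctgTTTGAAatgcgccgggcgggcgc
Kifc1 (chr17:33890609-33890693, minus strand): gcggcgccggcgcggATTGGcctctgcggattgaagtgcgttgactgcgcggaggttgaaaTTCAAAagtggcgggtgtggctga
Kif4 (chrX:100626005-100626089, plus strand): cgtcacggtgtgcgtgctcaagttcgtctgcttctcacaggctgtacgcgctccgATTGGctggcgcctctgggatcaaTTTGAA
Kif1c (chr11:70700488-70700572, plus strand): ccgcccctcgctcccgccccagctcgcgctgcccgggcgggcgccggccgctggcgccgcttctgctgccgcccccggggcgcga
Kif7 (chr7:79715683-79715767, minus strand): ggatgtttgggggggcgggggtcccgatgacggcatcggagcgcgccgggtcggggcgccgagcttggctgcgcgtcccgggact

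The CHR letters, on either strand, stood in the 300-base windows of 10 of 12 mitotic genes (83.3%), in 1 of 12 transport windows (8.33%), in 2 of 12 windows of the other kinesins (16.7%) and in 17.9% of 32851 windows of all genes. Kif18a and Kif2b were the mitotic genes without them. Of 27 windows of 25 genes that act beside the mitotic kinesins, such as Aurkb and Prc1, 66.7% held the letters. The CCAAT letters stood in 8 of 12 mitotic windows (66.7%), 4 of 12 transport windows (33.3%), 4 of 12 windows of the others (33.3%) and 37.4% of all windows. TTTGAA and CCAAT stood together in 7 mitotic windows, 0 transport windows, 2 windows of the others and 6.95% of all windows. The motif TTCGAA, another form of CHR, was in 0 mitotic and 0 transport windows, in 1 window of the others (Kif24) and in 1.56% of all. These are matches of letters and not measured binding sites. CpG-rich windows, with at least 55% G and C and an observed-to-expected CpG ratio of at least 0.6, made up 75.0% of mitotic, 83.3% of transport and 66.7% of other kinesin windows, against 30.3% of all windows. All windows came from 27025 genes, not limited to those expressed in these cells, and no share over expressed genes is given. Among the mitotic kinesins Kif20a had no window.

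Kinesin mRNA in these ESCs was mostly mitotic. FPKM is already divided by transcript length, so levels can be set side by side between genes. Among tested genes the median of the mean FPKM over 6 samples was 27.9 for mitotic kinesins, 5.64 for transport kinesins and 2.52 for the others, against 9.43 for all genes tested. Mitotic kinesins held 66.5% to 73.9% of the summed kinesin FPKM of a sample, and transport kinesins 18.9% to 25.9%. The summed kinesin FPKM was 554, 447 and 546 in the untreated replicates 1, 2 and 3 and 479, 470 and 551 in the treated ones, with overlapping groups. The labelled cell type was checked by its markers, and all 10 ESC markers, Pou5f1 and Nanog among them, were at 22.7 FPKM or above in each sample.

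**Figure D1:**
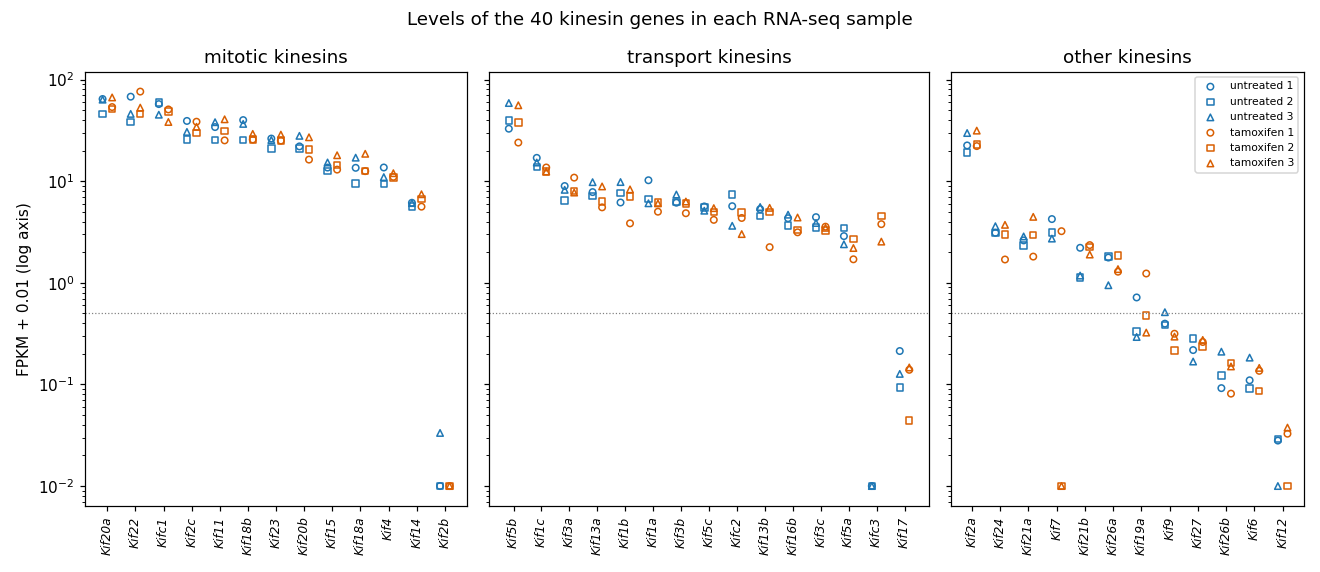
FPKM plus 0.01 (log axis) of the 40 kinesin genes in each of 6 samples, in 3 panels by class and ordered by mean; colours give the group, shapes the replicate number, and the dotted line the filter value of 0.5 FPKM. Most mitotic genes sit above 10 FPKM in every sample, and points at the bottom edge are values listed at 0, which include Kifc3 in the 3 untreated samples and Kif7 in 2 treated samples.

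Without pairing the samples, 1 of the 32 tested kinesins passed the test (limma, Benjamini-Hochberg adjusted over 12997 genes, threshold 0.05), beside 0.0308% of all genes, which is 4 genes (0.0231% higher and 0.00769% lower after tamoxifen). That kinesin, Kifc3, was listed at 0 in every untreated sample and passed the filter on low values only through the treated ones. At an unadjusted p under 0.05 the count was 2 of 32 kinesins beside 4.79% of all genes. The replicate numbers did pair the samples, and once replicate number entered limma as a block, 2 of 32 kinesins passed the adjusted threshold, beside 10.4% of all genes. Kifc3 was higher after tamoxifen, as were 4.33% of all genes, and Kif7 was lower, as were 6.06%. Both carry values listed at 0 in several samples and are described last. At an unadjusted p under 0.05 the block gave 10 of 32 kinesins beside 29.8% of all genes.

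The other 30 tested kinesins had differences on the log2(FPKM + 0.1) scale, as tamoxifen minus untreated, between -0.41 and 0.56, with standard errors of 0.20 to 0.35. Their lowest adjusted p was 0.999 in limma without the block and 0.082 with it. For each of the 30 the difference was smaller than the range of at least 1 of its own groups, and for 21 it was smaller than both ranges. No such counts over all genes tested are given here. On the same scale the median difference was 0.07 for the 12 tested mitotic kinesins, -0.24 for the 14 tested transport kinesins and 0.07 for the 6 others, beside -0.02 for all genes tested.

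**Figure D2:**
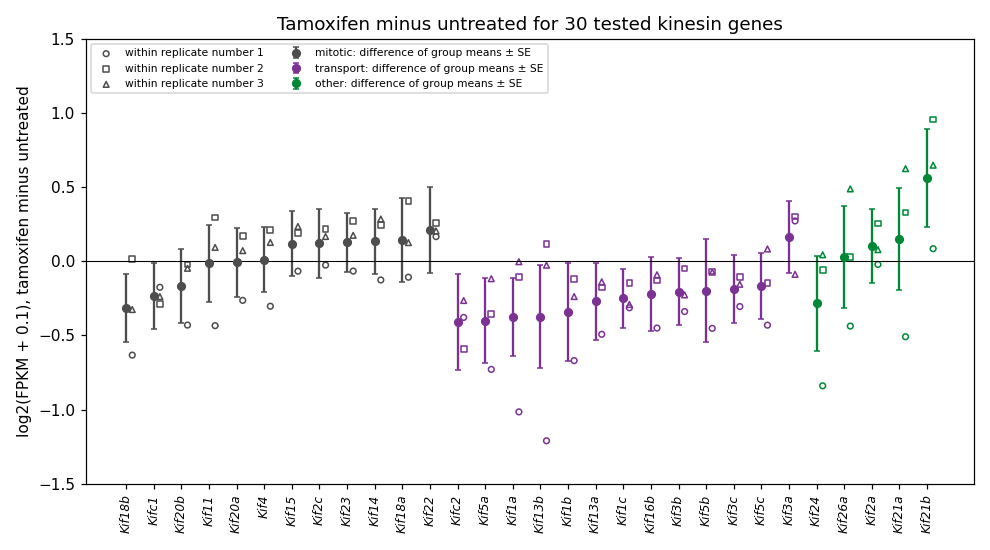
Difference on the log2(FPKM + 0.1) scale, tamoxifen minus untreated, for the 30 tested kinesins with no value listed at 0, by class. Filled circles with bars are the difference of group means (n = 3 per group) ± SE from limma, and open symbols the difference within each replicate number. Of the 13 transport kinesins shown only Kif3a has a filled circle above 0, while the mitotic kinesins lie between -0.31 and 0.21, and replicate 1 often gives the lowest open symbol.

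The most abundant kinesin was Kif20a, whose product works at the spindle midzone during the last steps of cell division. Kif20a was at 64.5, 45.7 and 63.5 FPKM in untreated replicates 1, 2 and 3 and at 53.7, 51.4 and 66.8 FPKM in the treated ones. The treated values lay almost within the span of the untreated ones, and the log2 difference was -0.01 ± 0.23 (SE, n = 3 per group). Its locus overlaps those of Cdc23 by 1595 bp and Brd8 by 187 bp.

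Kif22, a chromosome-arm motor that pushes chromosomes toward the spindle centre, came next with 67.9, 38.4 and 46.0 FPKM untreated and 76.3, 46.1 and 53.0 FPKM treated. It was the one mitotic kinesin that was higher after tamoxifen within all 3 replicate numbers, although the groups overlapped (log2 difference 0.21 ± 0.29; limma adjusted p = 0.999 without the block and 0.158 with it). The difference was 0.0024 without the treated replicate 1 and 0.44 without the untreated replicate 1. Kif22 also showed how far the replicates of 1 group lay apart, since replicate 1 was highest and replicate 2 lowest in each group.

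Kifc1, a minus-end motor that cross-links and focuses spindle poles, was at 57.5, 59.3 and 45.2 FPKM untreated and at 50.9, 48.5 and 38.3 FPKM treated. It was lower within all 3 replicate numbers and the groups overlapped (log2 difference -0.23 ± 0.22, adjusted p = 0.999; 0.130 with the block, both limma). Of the 2300 windows of 51 bases, the read length, in its longest annotated transcript, 45.4% also occur in its near-copy Kifc5b, so reads of both genes cannot be cleanly divided. Kifc5b itself was at 25.9, 28.2 and 20.6 FPKM untreated and 20.7, 23.3 and 17.2 FPKM treated. The sum of Kifc1 and Kifc5b was 78.8 ± 11.6 FPKM untreated and 66.3 ± 9.35 FPKM treated (SD, n = 3).

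Kif2c, which removes tubulin from microtubule ends and helps correct wrong kinetochore attachments, was at 39.2, 25.6 and 30.6 FPKM untreated and at 38.5, 29.9 and 34.3 FPKM treated. Kif11, the motor that slides antiparallel microtubules apart to make the spindle bipolar, was at 34.1, 25.3 and 38.1 FPKM untreated and at 25.2, 31.1 and 40.7 FPKM treated. Both pairs of groups overlapped, and the log2 differences were 0.12 ± 0.23 for Kif2c and -0.01 ± 0.26 for Kif11. In Kif11 the replicate numbers disagreed: replicate 1 was lower after tamoxifen and replicates 2 and 3 were higher.

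Kif23, the motor of the centralspindlin complex that cells need to divide, was at 26.3, 20.9 and 25.5 FPKM untreated and at 25.1, 25.2 and 28.8 FPKM treated. Kif4, a chromosome-bound motor that limits midzone microtubule length, was at 13.6, 9.38 and 10.97 FPKM untreated and at 11.04, 10.9 and 11.99 FPKM treated. Their log2 differences were 0.13 ± 0.20 and 0.01 ± 0.22, and in each gene the treated values spread less than the untreated ones. The processed copy Kif4-ps was at 0.024 FPKM or below, and 0.28% of Kif4's 51-base windows occur in another gene.

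Kif18b, which shortens astral microtubules, had the lowest difference of the mitotic class. It was at 39.97, 25.6 and 36.7 FPKM untreated and at 25.7, 25.8 and 29.2 FPKM treated, a log2 difference of -0.31 ± 0.23 in which replicate 2 did not share (0.01). Kif14 and Kif20b are known for roles in the last steps of division, Kif15 backs up Kif11 in the spindle, and Kif18a steadies chromosomes on the metaphase plate. These remaining tested mitotic genes, Kif14, Kif15, Kif18a and Kif20b, had mean levels between 6.25 and 22.5 FPKM and differences between -0.17 and 0.14. Kif2b, a testis-rich relative of Kif2c, was listed at 0 in 5 of 6 samples and was not tested.

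Genes that work beside the mitotic kinesins were examined in the same fits. All 28 listed, including Aurka, Aurkb, Plk1, Cdk1 and Top2a, were tested. The list also holds Cenpe, itself a mitotic kinesin motor, whose name lies outside the rule for members. In limma 0 were called with or without the block, beside 0.0308% of all genes without it and 10.4% with it. At an unadjusted p under 0.05 the counts without and with the block were 0 and 5 of 28, beside 4.79% and 29.8% of all genes. The median difference of the 28 was 0.08. Top2a, the most abundant, was at 194, 132 and 178 FPKM untreated and at 161, 169 and 223 FPKM treated.

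As deposited, 10 of 14 tested transport kinesins were lower after tamoxifen within all 3 replicate numbers, beside 28.2% of all genes. This count depends on how samples are scaled: it was 9 beside 23.9% of all genes after quantile normalization, 0 beside 12.5% when each sample was rescaled to a constant sum (TPM scaling), and 10 beside 37.6% when loci under 300 bp were left out before that rescaling. In the same order the counts for the mitotic class were 2 of 12 as deposited and then 3, 0 and 3. The medians of the 14 transport kinesins within replicate numbers 1, 2 and 3 were -0.44, -0.11 and -0.10 as deposited, and those of all genes -0.06, 0.04 and -0.02. The transport median minus that of all genes was -0.38, -0.15 and -0.09 in replicates 1, 2 and 3 as deposited, stayed at these values after TPM scaling, which shifts all genes of a sample alike, and was -0.25, -0.15 and -0.06 after quantile normalization. For the mitotic class it was -0.09, 0.17 and 0.14 as deposited. No transport kinesin other than Kifc3 passed the adjusted threshold with or without the block.

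Replicate 1 carried much of that median. Without the treated replicate 1, the median of the transport class moved from -0.24 to -0.11. Differences within replicate number 1 also went with transcript length. Over the 30 kinesins Spearman's rho between the length of the longest annotated transcript (GENCODE vM1) and the difference was -0.40 in replicate 1, -0.21 in replicate 2 and 0.04 in replicate 3, and over 11973 genes with a length it was -0.50, -0.17 and -0.12; genes are not independent replicates. The 19 kinesins with a transcript of at least 5000 bases had median differences of -0.44, -0.06 and -0.05 in replicates 1, 2 and 3, and the 11 shorter ones -0.18, 0.21 and 0.13. Over all 2155 tested genes with a transcript of at least 5000 bases the medians were similar to those of the long kinesins, at -0.39, -0.06 and -0.07. The median longest transcript was 6383 bases for the 13 transport kinesins without a listed 0 and 3495 bases for the mitotic ones. The part of length in the class difference was not tested.

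Kif5b, the ubiquitous heavy chain of conventional kinesin, was the most abundant transport kinesin. Kif5b was at 32.9, 39.7 and 58.8 FPKM untreated and at 24.0, 37.9 and 55.9 FPKM treated. Each treated sample lay below the untreated sample of its number, yet the replicates of 1 group differed far more than the groups did (log2 difference -0.20 ± 0.35). Its relatives of the neuron-rich kind were much lower: Kif5c had a mean of 5.14 FPKM, and Kif5a was at 2.87, 3.45 and 2.38 FPKM untreated and 1.69, 2.68 and 2.19 FPKM treated.

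Kif1c, a vesicle motor expressed in many tissues, was the only tested kinesin without listed zeros whose groups did not overlap, in a table where 8.49% of genes had such groups, 5.4% of genes being lower and 3.09% higher after tamoxifen. It was at 16.97, 13.8 and 15.3 FPKM untreated and at 13.6, 12.5 and 12.5 FPKM treated, that is 15.4 ± 1.57 and 12.9 ± 0.67 FPKM (SD, n = 3). The log2 difference was -0.25 ± 0.20, and limma gave an adjusted p of 0.999 without and 0.144 with the block.

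Kif1b, a carrier of mitochondria and synaptic vesicle precursors, was at 6.17, 7.65 and 9.81 FPKM untreated and at 3.84, 7.03 and 8.30 FPKM treated. Kif1a, its neuronal relative, was at 10.2, 6.66 and 6.06 FPKM untreated and at 5.00, 6.17 and 6.04 FPKM treated, so the untreated replicate 1 alone stood above the rest. Kifc2, a minus-end motor, was at 5.67, 7.41 and 3.63 FPKM untreated and at 4.34, 4.89 and 3.01 FPKM treated. Kifc2 had the lowest adjusted p with the block among the 30 (0.082) and a log2 difference of -0.41 ± 0.32, which was -0.18 without the untreated replicate 2 and -0.68 without the untreated replicate 3. The groups of all 3 genes overlapped.

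**Figure D3:**
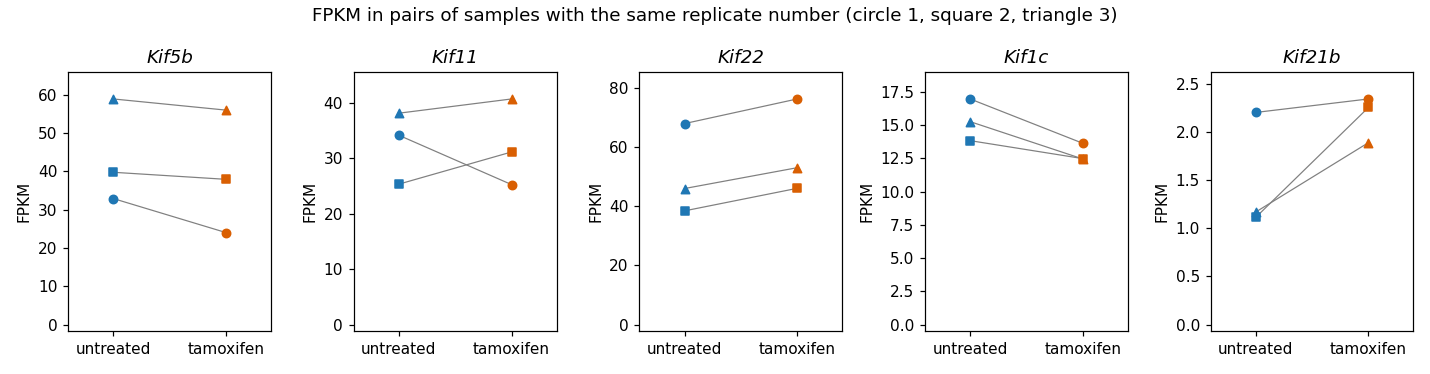
FPKM of Kif5b, Kif11, Kif22, Kif1c and Kif21b in the untreated and tamoxifen samples, with lines joining samples of the same replicate number (circle 1, square 2, triangle 3). Replicate 3 of Kif5b and replicate 1 of Kif22 are highest in both groups, and the lines of Kif11 run in different directions.

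Kif3a, a motor subunit of the kinesin-2 that builds cilia, was the exception among transport kinesins without zeros, with a positive log2 difference of 0.16 ± 0.24. It was at 8.96, 6.46 and 8.22 FPKM untreated and at 10.8, 7.98 and 7.73 FPKM treated, higher within replicates 1 and 2 and lower within replicate 3. Its motor partners Kif3b and Kif3c had differences of -0.20 ± 0.23 and -0.19 ± 0.23, and the locus of Kif3c overlaps that of 1110002L01Rik by 2612 bp. The endosome and membrane carriers Kif13a, Kif13b and Kif16b had differences between -0.37 and -0.22. In Kif13b this rested on the treated replicate 1, at 2.23 FPKM, while the other 5 samples held 4.56 to 5.56 FPKM. Kif17, a dendrite and cilium motor, stayed at 0.203 FPKM or below and was not tested.

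Of the 13 genes listed for kinesin light chains, adaptors and mitochondrial cargo receptors, 12 were tested and 0 were called with or without the block (limma). The shares of all genes called were 0.0308% without the block and 10.4% with it. At an unadjusted p under 0.05 the counts without and with the block were 0 and 3, beside 4.79% and 29.8% of all genes. The median difference was -0.11, and 6 of the 12 were lower within all 3 replicate numbers, beside 28.2% of all genes. Kidins220, which links kinesin-1 to membrane cargo, had a difference of -0.43 and an adjusted p with the block of 0.057. Trak1, which joins kinesin-1 to mitochondria, had groups that did not overlap, at 11.5, 9.97 and 10.3 FPKM untreated and 7.62, 8.49 and 8.12 FPKM treated (adjusted p with the block 0.076). Such groups, lower after tamoxifen, were found in 5.4% of all genes.

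The opposite motor, dynein, and its activator dynactin gave 16 tested genes of 17 listed with a median difference of -0.04. None of the 16 was called in limma without the block, beside 0.0308% of all genes, with 0 at an unadjusted p under 0.05, beside 4.79%. With the block 1 was called, beside 10.4% of all genes. Dynlt1b, a dynein light chain, was at 24.5, 15.9 and 16.5 FPKM untreated and at 38.9, 21.4 and 23.8 FPKM treated (log2 difference 0.54, adjusted p = 0.018 with the block).

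Among the other kinesins Kif2a, a microtubule depolymerase relative of Kif2c, was the most abundant, with a mean of 24.7 FPKM and a log2 difference of 0.10 ± 0.25. Kif2a also acts at spindle poles, so its place outside the mitotic class is a choice that bears on the class shares. The summed FPKM of its class was 31.9 to 44.1 per sample. Kif21b, which restrains microtubule growth in neurons and lymphocytes, had the largest difference among the 30 kinesins without zeros. It was at 2.20, 1.11 and 1.17 FPKM untreated and at 2.34, 2.25 and 1.89 FPKM treated. The untreated replicate 1 stood with the treated samples, so the groups overlapped, and the log2 difference was 0.56 ± 0.33 (limma adjusted p = 0.999; 0.118 with the block). Without replicate number 1 the fit with the block gave Kif21b a difference of 0.80 and an adjusted p of 0.023, in a range over the alternatives from that value to 1.

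Kif21a, Kif24 and Kif26a, whose known roles lie in microtubule growth at the cell cortex, centriole capping and signalling, had means of 3.03 FPKM or below and differences between -0.28 and 0.15. In Kif24 the treated replicate 1 was at 1.69 FPKM and the other 5 samples at 2.97 to 3.71 FPKM. Kif6, Kif9, Kif12, Kif19a, Kif26b and Kif27 did not pass the filter. With Kif2b and Kif17 these were the 8 untested kinesins, which ranged from 0 to 1.23 FPKM. Kif9, a motile-cilium motor, was at 0.386, 0.373 and 0.504 FPKM untreated and at 0.305, 0.205 and 0.286 FPKM treated. Its groups did not overlap, and with no filter limma gave it an adjusted p of 0.989.

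Kif7 is a motor-like protein at the tip of the primary cilium that tunes Hedgehog signalling. It was at 4.23, 3.13 and 2.72 FPKM in the untreated replicates 1, 2 and 3, at 3.21 FPKM in the treated replicate 1 and listed at 0 in the treated replicates 2 and 3. The treated samples thus differed from each other, and the treated replicate 1 lay within the untreated span. Limma gave an adjusted p of 0.783 without the block and 0.038 with it, and 0.067 with the block after quantile normalization. Without the treated replicate 1, the only treated sample with Kif7 above 0, and with no block, it was 0.0015. Fits without replicate 1 keep only treated values listed at 0. Their small p-values follow from leaving out that sample and are no independent support for a difference. The fit with the block gave 8.61e-06, 0.224 and 0.067 without replicate numbers 1, 2 and 3, and over all alternatives tried the adjusted p ran from 8.61e-06 to 1.

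Kifc3 is a minus-end motor active at cell junctions and in vesicle traffic. It was listed at 0 in all 3 untreated samples and was at 3.77, 4.52 and 2.53 FPKM in the treated replicates 1, 2 and 3. Kifc3 passed the filter only through the group where it was high, so its p-values and its separated groups are no independent support for a difference. Its 3 untreated values were identical, so within this gene only the treated samples carried a spread. The groups did not overlap, and limma gave adjusted p-values of 0.0019 without and 0.00071 with the block, and 0.058 with neither the block nor the filter on low values. Over all alternatives tried it ran from 6.77e-06 to that value. No fold change is given for Kifc3 or Kif7, since a 0 in tables without read counts may be a failed estimate. The deposited status of these zeros was OK. Their deposited upper bounds were 0.019 and 0.026 FPKM for Kif7 in the treated replicates 2 and 3, and 0.059, 0.061 and 0.076 FPKM for Kifc3 in the untreated replicates 1, 2 and 3.

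Values that switch between 0 and clear expression were rare in the table. A 0 beside at least 2 FPKM in another sample was found in 119 of 12997 genes (0.916%), and Kif7 and Kifc3 were the 2 among 32 kinesins. Kif7 (chr7:86842984-86859072, minus strand, mm9) ends inside the end of Ticrr on the opposite strand, with an overlap of 48 bp at chr7:86842984-86843031. In GENCODE vM1, where Ticrr is named 5730590G19Rik, untranslated sequence of both genes covers only part of it. Within the overlap that of Ticrr ends at 86843020 and that of Kif7 starts at 86842985. Kif3c (by 2612 bp) and Kif20a (by 1595 and 187 bp) also overlap other loci, and overlaps of Kifc3 are not reported here. Any link between overlap and zeros was not tested. The libraries were directional by the labels, but whether the quantification used strand is not given in the sources used here.

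Ticrr, a DNA replication initiation factor, was at 10.5, 11.1 and 14.8 FPKM untreated and at 10.7, 18.5 and 21.2 FPKM treated. Ticrr was thus highest in the treated replicates 2 and 3, in which Kif7 was listed at 0, with a log2 difference of 0.42 and limma adjusted p-values of 0.999 without and 0.101 with the block. The part of the overlap in the zeros of Kif7 was not tested.

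**Figure D4:**
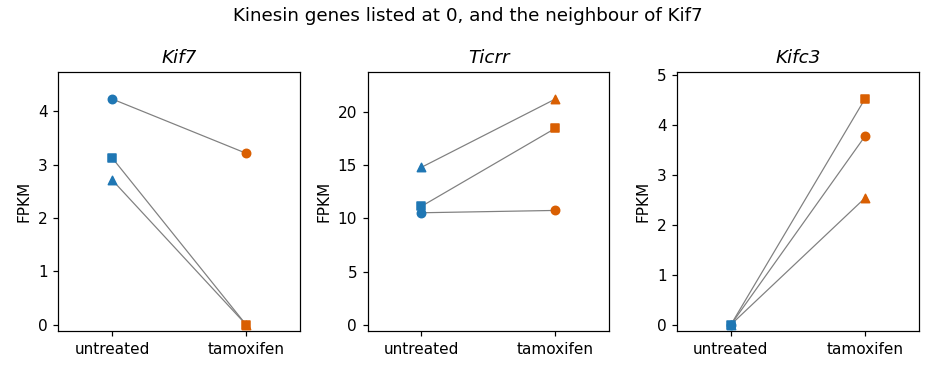
FPKM of Kif7, Ticrr and Kifc3 in the untreated and tamoxifen samples, with lines joining samples of the same replicate number (circle 1, square 2, triangle 3). Kif7 drops to a listed 0 in replicates 2 and 3 while Ticrr is highest there, and Kifc3 moves from a listed 0 to 2.53 to 4.52 FPKM.

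For most kinesins the replicate number separated samples more than the treatment did. In 22 of the 30 tested kinesins without zeros, a count not made here over all genes, the same replicate number was highest in both groups. Their deviations from the group means correlated between same-numbered samples at 0.68, 0.77 and 0.80 for replicates 1, 2 and 3, against 0.54, 0.61 and 0.51 over all genes tested. With the block the standard errors of the 30 ranged from 0.09 to 0.25. The intervals deposited with the FPKM values had a median half-width of 7.41% of the value over 180 values of these genes, and 14 of those values, in 4 genes, lay outside their own interval.

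The libraries differed in ways that bear on every kinesin value. The summed FPKM of a sample ran from 549379 to 1045710, loci under 300 bp held 23.9% to 67.7% of it, and 11521 to 11920 gene names reached 1 FPKM. The values analysed here hold no read counts, so the depth is unknown and no counting interval can be given. The 11 fibroblast markers, which the feeder cells would carry, summed to 176, 329 and 505 FPKM untreated and to 246, 288 and 357 FPKM treated. Vim made up most of each sum, at 124, 200 and 361 FPKM untreated and 160, 172 and 250 FPKM treated. Among untreated samples Vim, Acta2, Col3a1 and Pdgfrb were highest in replicate 3 and the other markers in replicate 2. Of the 11 markers 10 were tested and 0 called in limma, beside 0.0308% of all genes without the block and 10.4% with it. Over the 6 samples Acta2 was at 14.6 to 66.9 FPKM, Col1a1 at 15.6 to 40.3, Col1a2 at 11.5 to 33.2, Thy1 at 4.81 to 13.9, Dcn at 1.88 to 8.44 and Lum at 0.202 or below. In bulk RNA a smaller share of a cell type and less RNA per cell cannot be told apart. The part of feeder cells in the kinesin values was not tested.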

How the data were processed

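The authors prepared directional poly(A) RNA libraries and deposited, per gene row and sample, an FPKM value with a confidence interval and a status. The submitters' processing notes name Tophat2, Cufflinks 2.1.1 and Cuffdiff 2.1.1, with the mm9 build. FPKM divides by transcript length and library size, so a change in a few very abundant short genes can shift all other values of a sample. Columns of coverage were not used, and no ChIP-seq values were analysed here.

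Rows of the same gene name were summed, and 6 gene names with a failed status were left out. Genes with at least 0.5 FPKM in at least 3 of 6 samples entered a linear model of log2(FPKM + 0.1) in limma 3.58.1 (R 4.3.3; lmFit, eBayes with trend). P-values were adjusted by the Benjamini-Hochberg method and called at 0.05. Fold changes on this scale understate the change of low genes. The fit was tested on simulated data. Tables were handled in Python 3.11.15 with pandas 2.3.3 and numpy 2.4.6.

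The replicate numbers in the labels were taken to pair samples, since deviations from the group means correlated at 0.544, 0.605 and 0.506 between same-numbered samples over 12997 genes. A second fit had replicate number as a blocking term.

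Members, classes and gene lists were chosen with earlier results of these data known. Values per sample are given for members called in either fit, with groups that did not overlap, with a 0 beside expression, among the 5 highest, or in a preset list. Kif5a, Kif1a, Kifc2, Kif18b, Kif21b, Kif13b and Kif24 were added after their values were seen, as were Kidins220, Trak1, Dcn and Lum. Alternatives were other pseudocounts, scalings, filters, the block and leaving out samples. The values of 1 neighbouring gene are not reported here.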

Additional observations from a re-analysis of the deposited data

How the results depend on the processing

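The number of kinesins called, 1, became 0 with no filter, 0 with at least 1 FPKM required in all 6 samples (where Kifc3 and Kif7 leave the test), 0 with genes that have a 0 beside at least 2 FPKM left out, and 2 with the replicate block, and it ranged from 1 to 2 when 1 sample was left out. The number of genes called, 4, became 2 with a pseudocount of 1, 1 with no filter, 0 under each of both stricter gene filters, 1350 with the replicate block and 1144 with the block and quantile normalization, and ranged from 2 to 10 when 1 sample was left out. Fits with the replicate block that left out replicate number 1, 2 or 3, chosen after seeing the data, called 3, 1 and 1 kinesins and 1755, 79 and 837 genes. With all samples, the replicate block changed no call of a kinesin apart from Kif7, and without replicate 1 it also called Kif21b. Without the block Kif7 passed the threshold only when the treated replicate 1 was left out.

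The transport median ran from -0.33 to -0.11 over 23 alternatives, which refit the same samples and so are not independent. The block and dropping the eBayes trend cannot change it. Taking the highest row of each gene name or keeping failed rows as 0 left it at -0.24. It was -0.14 with TPM scaling and -0.33 with TPM scaling without loci under 300 bp. The medians of all genes there were 0.08 and -0.11. The mitotic median ran from -0.10 to 0.19. For the other kinesins the median ran from -0.11 to 0.16 when 1 sample was left out. In the blocked fits without replicate 1, 2 and 3 that median was 0.21, 0.03 and -0.15. Small differences changed sign. TPM scaling gave 0.0865 for Kif11 and 0.0936 for Kif20a, TPM scaling without loci under 300 bp gave -0.0761 for Kif4, and the ratio of group means gave -0.00425 for Kif4. Leaving out 1 sample gave ranges of -0.19 to 0.15 for Kif11, -0.0231 to 0.282 for Kif2c, -0.169 to 0.0785 for Kif20a, -0.12 to 0.15 for Kif4 and -0.49 to 0.11 for Kif5b. The blocked fit without replicate 1 gave 0.20 for Kif11 and 0.12 for Kif20a, and those without replicates 2 and 3 gave -0.0880 and -0.0466 for Kif4. The causes were not tested. The unknown depth limits what can be said of kinesins under 1 FPKM.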
